A study of Mus musculus with 2 samples.

Results

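The cycling cells of day 5 mouse intestinal organoids were the 180 cells, of 1065 day 5 cells and 1863 cells in all, with the highest mean deposited log2 value over Mki67, Top2a, Nusap1, Cdk1, Birc5, Rrm2, Ncaph and Spc25. They made up 16.9% of the day 5 cells. Organoids came from wild-type C57BL/6 mice aged 10 weeks, and 1 droplet single-cell RNA library (10x Genomics 3′ chemistry, which counts unique molecular identifiers, UMIs) was made on day 3 and 1 on day 5. Up to day 3 the culture medium, called ENR for its EGF, Noggin and R-Spondin, also held Wnt3a conditioned medium at 20% and Y-27632, which inhibits ROCK kinases, at 10 µM. Up to day 1 it held CHIR99021, which inhibits the kinase GSK3, at 3 µM. From day 3 to day 5 it was ENR alone, so the day and the medium differ together between the libraries. Cells of a library share their organoids and their preparation, and no group has a replicate library.

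The gut epithelium is renewed by dividing crypt cells. Before division a cell passes through G1, copies its DNA in S phase, prepares for mitosis in G2 and divides in M phase. E2F factors drive the genes of DNA replication late in G1, and the genes of G2 and mitosis come later. Many promoters of the latter hold CHR elements, through which the DREAM complex and the MuvB complexes with B-MYB and FOXM1 act, and CCAAT boxes, which are bound by NF-Y. In the crypt, stem cells at the base and their transit-amplifying daughters both divide, and cells that leave the crypt stop dividing and become absorptive or secretory.

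The 8 genes of the rule mark S phase, G2 and mitosis. Mki67 (chr7:135689784-135716361, coordinates from GENCODE on GRCm38) encodes the proliferation antigen Ki-67, Top2a (chr11:98992943-99024189) a DNA topoisomerase, and Cdk1 (chr10:69335146-69352938) the kinase of mitotic entry. Rrm2 (chr12:24708241-24714146) encodes a subunit of ribonucleotide reductase, and Ncaph (chr2:127103809-127133954) a condensin subunit. Nusap1 (chr2:119618298-119651244), Birc5 (chr11:117849251-117855743) and Spc25 (chr2:69193895-69206194) encode a spindle protein, survivin and a kinetochore subunit. These genes chose the members, so their values are a description. A member held 0 to 27 UMIs of Top2a (median 7), and the summed level was 318 UMIs per 1000000 (CPM) in the members and 24.1 CPM in the other 885 day 5 cells. A member held 0 to 14 UMIs of Mki67 (median 3.5), with 165 CPM in the members and 12.7 CPM in the other cells. Nusap1 had 178 CPM in the members and 6.10 CPM in the others, and Rrm2 had 72.9 CPM and 10.9 CPM.

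The score ran from 1.43 to 2.90 in the members, with a median of 2.001, and was 0 in 586 of the other 885 cells. The lowest member scored 1.434 and the highest other cell 1.431. Within 0.1 of that edge lay 14 members above it and 9 other cells below it, and 36 other cells scored over 1. The counts of cells fell to 9 between scores of 1 and 1.2 and were 23 between 1.2 and 1.4, below the edge. Being cut from a score, the members are a range of it, and whether they form a type of their own was not tested. All 8 genes of the rule had a UMI in 63 members, 6 or more had one in 171 members and in 23 of the other cells, and the fewest in a member was 4, in 2 members.

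**Figure D1:**
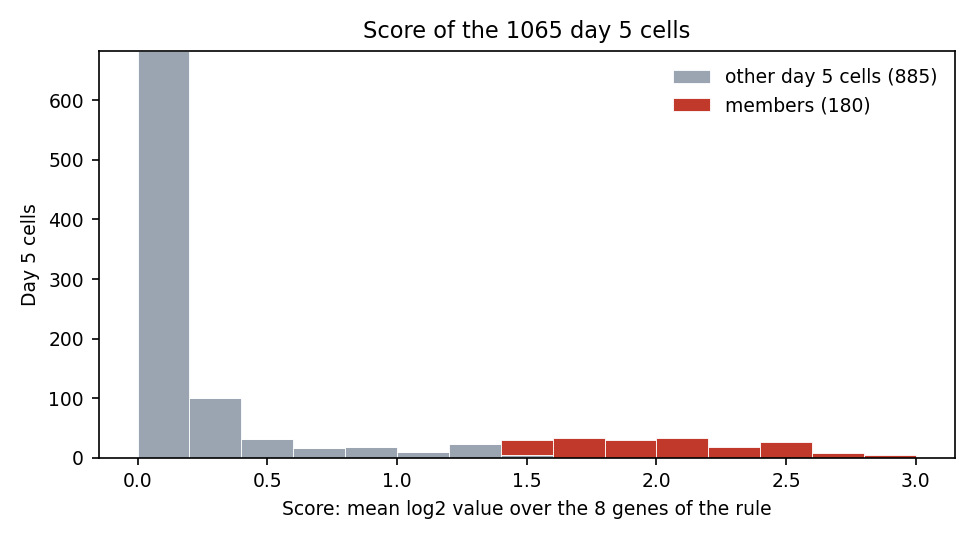
Number of day 5 cells (vertical axis) in each interval of the score (horizontal axis, mean log2 value over the 8 genes of the rule); red bars are the 180 members and grey bars the other 885 cells. Most of the other cells lie at or near 0, and the members occupy the range from 1.43 up with no gap at its lower edge. Counts fall to 9 between 1 and 1.2 and rise again below that edge, to 23 between 1.2 and 1.4.

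The members were deeper than the cells around them. Their median total was 21130 UMIs (6937 to 55314), against 12671 in the other day 5 cells, and their median number of genes was 3834 against 2626. Thinned at random to 6777 UMIs each, the cells held 1939 and 1824 genes. Mitochondrial transcripts took a median 5.24% of UMIs in the members and 6.82% in the other cells. No cell name was shared by both libraries, though the names carry numbers and not barcodes. Scrublet, set to expect 6% doublets, called 8 of the day 5 cells doublets (0.751%), 4 of them members. Many of the other cells were enterocyte-rich: 530 of 885 (59.9%) held at least the day 5 median share of UMIs from a list of 20 enterocyte genes, which is 1.66%, against 3 of 180 members (1.67%). A further comparison therefore used the 355 other cells below that share, here called enterocyte-low, whose median total was 15770 UMIs and whose median mitochondrial share was 5.29%. The part that depth plays in the differences below was not tested beyond the thinned counts.

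UMIs were summed over the cells of a group and scaled to CPM. A gene was counted higher or lower where the sums differed at least 1.5-fold and their exact Poisson 95% intervals, which cover counting error only, did not overlap. With 1 library there is no test, and since the members were chosen on transcripts of the same cells, every difference between members and other day 5 cells is a description. Of 11528 genes with at least 10 UMIs over both groups, 1763 (15.3%) were higher in the members than in the other day 5 cells and 1442 (12.5%) were lower. The median log2 ratio over all these genes was 0.10. With TMM scaling it was -0.03, and 1272 genes were higher and 1845 lower. Against the enterocyte-low cells, 602 of 11077 genes (5.43%) were higher and 411 (3.71%) lower, with a median log2 ratio of 0.02 over all genes.

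Genes of the mitotic apparatus were higher in the members with few exceptions. The spindle and cytokinesis list had 34 of 34 genes higher than in the other day 5 cells, with a median log2 ratio of 3.49, and 34 of 34 higher than in the enterocyte-low cells, with a median of 2.60. Aspm, which focuses spindle poles, had 26.3 CPM in the members, 1.07 CPM in the other cells and 1.76 CPM in the enterocyte-low cells. Its log2 ratio over the other cells was 4.58 (95% interval 3.82 to 5.54). Anln, the cytokinetic ring protein anillin, had a log2 ratio of 4.57 and Prc1, a cross-linker of midzone microtubules, one of 4.29. The lowest of the list was Cep70, a centrosomal gene, at 1.58.

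The kinetochore and spindle checkpoint list, whose products attach chromosomes to microtubules and delay anaphase, had 30 of 30 genes higher in both comparisons, with medians of 3.10 and 2.24. Nuf2, a subunit of the NDC80 complex, had 35.0 CPM in the members against 1.83 CPM in the other cells and 3.23 CPM in the enterocyte-low cells. Cenpe, a kinetochore motor, had 90.7 CPM against 6.02 CPM and 9.70 CPM. Zwint was the lowest of the list, with a log2 ratio of 0.82 over the other cells.

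Among mitotic kinases, cyclins and subunits or partners of the anaphase-promoting complex (APC/C), 27 of 29 genes were higher than in the other cells and 25 of 29 higher than in the enterocyte-low cells, with medians of 3.22 and 2.39. Ube2c, the ubiquitin-conjugating enzyme of the APC/C, held a median of 11 UMIs per member and at most 35. Its summed level was 514 CPM in the members, 30.3 CPM in the other cells and 52.3 CPM in the enterocyte-low cells, a log2 ratio of 4.08 (3.93 to 4.24) over the other cells. Ccnf, which encodes cyclin F, had a log2 ratio of 4.46, and the kinases Aurka, Aurkb and Plk1 had 4.21, 3.89 and 3.68. Ccnb1, cyclin B1, had 127 CPM in the members against 11.0 CPM in the other cells. The transcription factor Foxm1, which drives many of these genes, had 19.2 CPM against 1.14 CPM. Wee1 and Cdc25a, a kinase and a phosphatase acting on cyclin-dependent kinases, were the 2 genes of the list counted neither higher nor lower, with log2 ratios of 0.50 and -0.07.

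The promoter windows in the RefSeq table (GRCm38.p6) were searched on both strands for CHR elements (TTTGAA, with TTCGAA as a further form), for CCAAT boxes (CCAAT) and for E2F motifs. The E2F motif searched was TTTGGCG in its usual form. A variant of it, TTTCGCG, was counted as well. So was the variant spelled TTTCCCG. A window runs from 250 bases before a gene's start to 50 bases after it, and matches may overlap. For the 93 genes of the 3 lists just described, the table matched 75 genes with 83 windows. A CHR element was found in 66.3% of these windows, in 19.2% of all 32851 windows of the table, and in 14.1% of the 11469 windows of the genes compared. A CHR element together with a CCAAT box was found in 54.2% of the 83 windows and 7.52% of all. Of the 42 windows of the DNA replication list (35 of 43 genes matched), 19.0% held a CHR element and 52.4% an E2F motif. An E2F motif was found in 14.5% of windows of the 3 mitosis lists, 5.58% of all windows and 9.77% of windows of the genes compared. A CCAAT box, with or without a CHR element, was in 72.3% of the 83 mitosis windows and 66.7% of the replication windows. It was thus common in both sets, against 38.4% of windows of the genes compared. Among 404 genes that were higher than in the enterocyte-low cells and belong to no list used here, 310 matched, and 31.7% of their 388 windows held a CHR element. For the 360 genes in no list that were lower, 280 matched, and the share was 15.9% of 352 windows. A match is only these letters in this window. The bases upstream of 4 gene starts are printed to show both arrangements, 5′ to 3′ on the gene's strand, with motif letters in capitals (a motif on the opposite strand is printed as its complement in reverse): Mki67 (chr7:135716380-135716629, minus strand), Cdk1 (chr10:69352913-69353162, minus strand), Ube2c (chr2:164769679-164769928, plus strand) and Mcm6 (chr1:128359706-128359955, minus strand), the last a subunit of the replicative helicase.
Mki67: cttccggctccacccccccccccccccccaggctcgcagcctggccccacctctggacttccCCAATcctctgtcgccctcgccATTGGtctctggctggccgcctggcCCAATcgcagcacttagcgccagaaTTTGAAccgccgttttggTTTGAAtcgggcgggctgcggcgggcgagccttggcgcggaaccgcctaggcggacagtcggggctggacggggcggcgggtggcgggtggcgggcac
Cdk1: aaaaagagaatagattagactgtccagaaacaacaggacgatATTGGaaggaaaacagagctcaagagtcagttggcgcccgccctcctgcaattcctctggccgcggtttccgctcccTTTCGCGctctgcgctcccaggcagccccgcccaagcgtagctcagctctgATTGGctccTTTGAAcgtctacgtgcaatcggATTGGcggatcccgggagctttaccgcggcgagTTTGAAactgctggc
Ube2c: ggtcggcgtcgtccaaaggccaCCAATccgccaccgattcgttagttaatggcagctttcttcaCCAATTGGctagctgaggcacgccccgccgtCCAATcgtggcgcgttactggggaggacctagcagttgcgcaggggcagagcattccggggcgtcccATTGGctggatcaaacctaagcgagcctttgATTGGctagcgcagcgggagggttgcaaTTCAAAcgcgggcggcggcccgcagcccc
Mcm6: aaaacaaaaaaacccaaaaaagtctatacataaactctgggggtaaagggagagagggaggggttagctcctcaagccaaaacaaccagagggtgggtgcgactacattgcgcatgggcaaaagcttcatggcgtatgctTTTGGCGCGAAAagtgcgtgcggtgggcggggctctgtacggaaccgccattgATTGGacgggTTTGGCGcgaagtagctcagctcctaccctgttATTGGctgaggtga

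In the Mki67 window CHR elements began 116 and 98 bases before the gene's start, downstream of CCAAT boxes at 188, 166 and 141 bases. In the Cdk1 window they began 71 and 15 bases before the start, among CCAAT boxes at 208, 80 and 48 bases, and an E2F motif lay at 131 bases. Starts here are those of the RefSeq table and can differ from GENCODE. The Cdk1 window overlaps the GENCODE span of the gene given above. In the Ube2c window the CHR element began 29 bases before the start, with CCAAT boxes at 228, 186, 183, 155, 88 and 57 bases, those at 186 and 183 overlapping. The Mcm6 window held no CHR element and had E2F motifs at 110, 105 and 47 bases, those at 110 and 105 overlapping, with CCAAT boxes at 57 and 14 bases. Of the 8 genes of the rule, 4 had a CHR element and 3 an E2F motif. The histone genes described next had no match in the table.

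Replication-dependent histones package newly made DNA. Their transcripts mostly lack a poly(A) tail, which the library chemistry needs, and many gene copies are near-identical, so the level of each copy is uncertain. Of 17 such genes compared, 15 were higher than in the other day 5 cells (median log2 ratio 3.24) and 12 were higher than in the enterocyte-low cells (2.61). Hist1h2ae had 133 CPM in the members, 8.23 CPM in the other cells and 15.0 CPM in the enterocyte-low cells. Hist1h2ap, outside the list, had 1999 CPM, 119 CPM and 216 CPM, with a median of 44 UMIs per member. Hist1h2bc went the other way, with 51.1 CPM in the members against 131 CPM and 146 CPM. The chromosome structure list had 30 of 31 genes higher than in the other cells (median 1.75) and 27 of 31 higher than in the enterocyte-low cells (1.16). Esco2, an acetyltransferase of cohesin, led it with 42.1 CPM against 2.67 CPM, and the condensin subunit Ncapg followed with 34.6 CPM against 2.67 CPM. The histone variant H2afz had 1659 CPM in the members, 445 CPM in the other cells and 675 CPM in the enterocyte-low cells. Of 14 tubulin and microtubule genes, 9 were higher in each comparison, with medians of 1.37 and 0.72. Tuba1b had 606 CPM against 98.7 CPM in the other cells, and Stmn1, which destabilises microtubules, 698 CPM against 142 CPM. Tubulin genes have close copies, so their levels are uncertain in the same way.

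DNA replication genes, like those of the mitosis lists, differed less from the enterocyte-low cells than from all other day 5 cells. Of 43 genes, 39 were higher than in the other day 5 cells (median log2 ratio 1.41), and 20 were higher than in the enterocyte-low cells (0.66). Asf1b, a histone chaperone of the replication fork, had 35.8 CPM in the members, 4.88 CPM in the other cells and 8.96 CPM in the enterocyte-low cells, a log2 ratio of 1.99 over the latter. Ticrr, which helps fire origins, had 8.52 CPM against 2.50 CPM in the enterocyte-low cells, and Fen1, the flap endonuclease, 36.7 CPM against 16.02 CPM. The 6 subunits of the MCM helicase that is loaded at origins in G1 behaved otherwise. Mcm2 to Mcm7 had a median log2 ratio of 0.78 over the other cells, with 5 of 6 higher. Over the enterocyte-low cells the median was -0.10, and 1 of 6 was higher, Mcm5, at 0.67. Mcm6 had 49.2 CPM in the members, 30.4 CPM in the other cells and 55.0 CPM in the enterocyte-low cells. Cdt1 and Cdc6, which load that helicase, had log2 ratios of -0.04 and -0.16 over the enterocyte-low cells. Pcna, the sliding clamp, had 88.8 CPM, 52.2 CPM and 68.8 CPM.

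**Figure D2:**
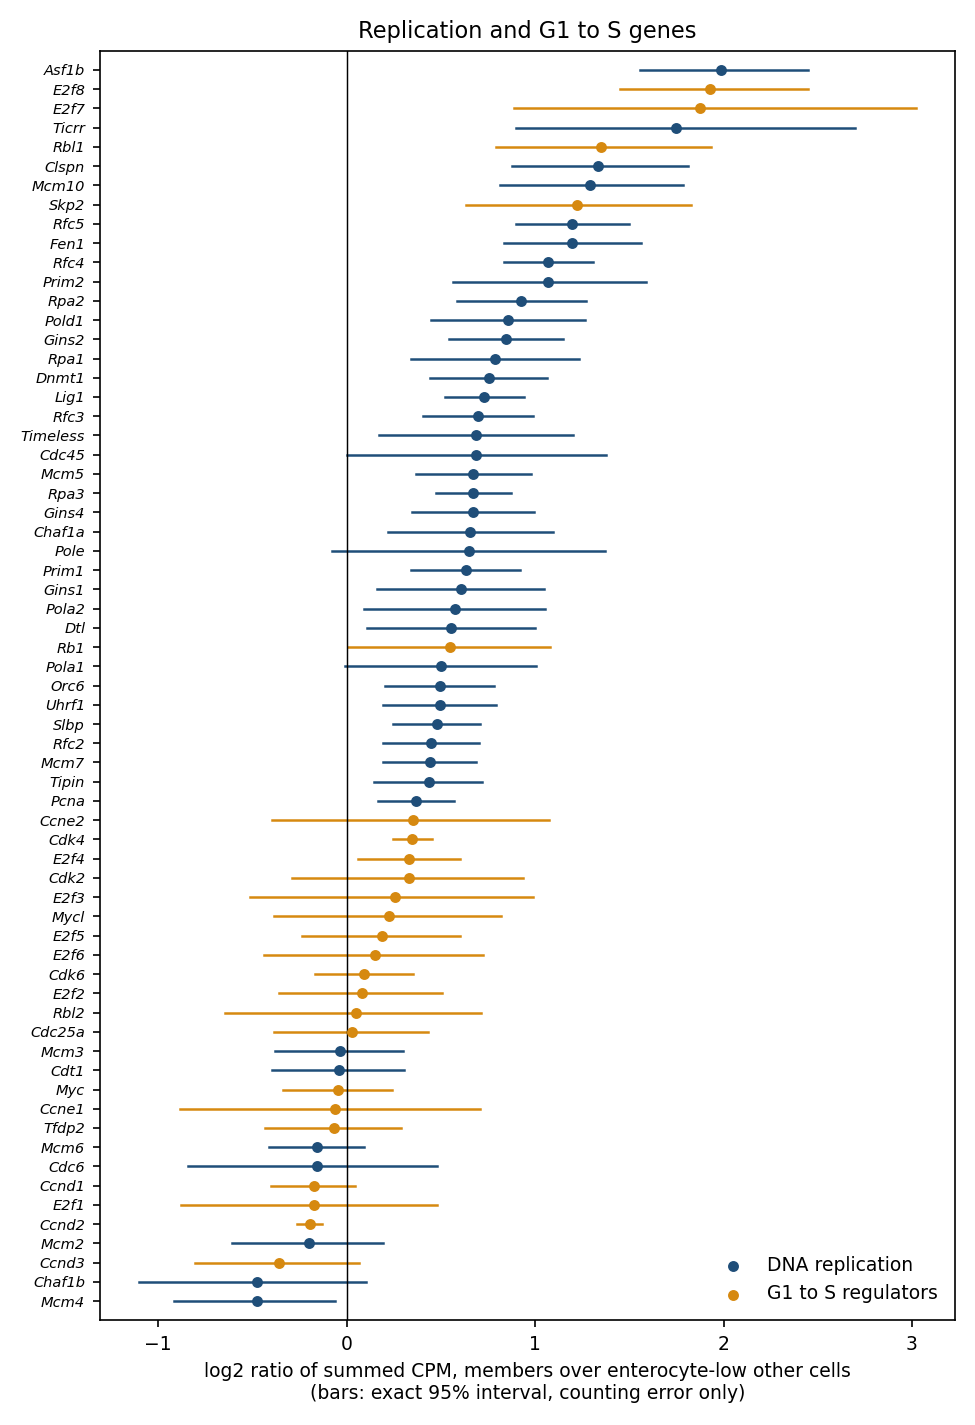
log2 ratio of summed CPM in the members over the 355 enterocyte-low other day 5 cells (horizontal axis) for 65 genes of the DNA replication list (blue) and the G1 to S list (orange) with at least 40 UMIs over both groups; points are ratios and bars exact 95% intervals for counting error only. Asf1b is at the top at 1.99, while Mcm2, Mcm3, Mcm4, Mcm6, Cdt1, Cdc6 and E2f1 lie below 0.

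Among G1 to S regulators fewer genes were higher than in the enterocyte-low cells than were higher than in the other cells. Of 26 genes, 13 were higher than in the other cells (median 0.71) and 4 were higher than in the enterocyte-low cells (0.17). Over all genes 15.3% and 5.43% were higher. The 4 were E2f8, E2f7, Rbl1 and Skp2. The first 2 encode repressors of E2F targets, the third a pocket protein that binds E2F factors, and the last a ubiquitin ligase subunit that targets p27. E2f8 had 28.2 CPM in the members, 6.48 CPM in the other cells and 7.35 CPM in the enterocyte-low cells. The G1 cyclin Ccnd1 had 62.0 CPM, 38.9 CPM and 70.1 CPM, and Ccnd2 had 689 CPM, 467 CPM and 789 CPM. E2f1 and Ccne1, cyclin E1, had log2 ratios of -0.18 and -0.06 over the enterocyte-low cells. Cells rich in replication transcripts also stood outside the members. Of the 355 enterocyte-low cells, 84 (23.7%, exact binomial interval 19.3% to 28.4%) held at least the members' median level of the replication list, 1378 CPM. Their scores ran from 0 to 1.43 with a median of 0.56, and their median level of the 3 mitosis lists together was 1432 CPM, against 6247 CPM in the members.

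Nucleotide synthesis and DNA repair genes were higher as well, the repair genes by more. Of 21 nucleotide synthesis genes, 20 were higher than in the other cells (median 1.02) and 9 higher than in the enterocyte-low cells (0.53). Tk1, thymidine kinase, had 121 CPM in the members, 17.8 CPM in the other cells and 30.1 CPM in the enterocyte-low cells. Rrm1, the partner subunit of Rrm2, had 71.7 CPM, 13.8 CPM and 24.7 CPM. Paics, of purine synthesis, had 67.5 CPM, 46.5 CPM and 77.5 CPM, and was not counted in either comparison. Of 22 repair and replication checkpoint genes, 21 were higher than in the other cells (median 2.22) and 17 higher than in the enterocyte-low cells (1.39). Bard1, the partner of BRCA1, had 13.02 CPM against 0.610 CPM and 1.03 CPM, and the helicase gene Blm 10.4 CPM against 0.990 CPM and 1.91 CPM. Neil3, a DNA glycosylase outside the lists, was among the 15 genes with the largest ratio, at 51.6 CPM against 3.96 CPM in the other cells.

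Inhibitors of proliferation differed in both directions. Of 18 such genes, 5 were higher and 5 lower than in the other cells, and of 16 compared with the enterocyte-low cells 6 were higher and 3 lower. Mxd3, of the MAX dimerization family, had 21.3 CPM in the members, 0.838 CPM in the other cells and 1.03 CPM in the enterocyte-low cells, a log2 ratio of 4.61 (3.76 to 5.72) over the other cells. Cdkn3, a phosphatase acting on cyclin-dependent kinases, had 47.6 CPM, 7.69 CPM and 13.7 CPM. Cdkn2d and Cdkn2c, inhibitors of CDK4 and CDK6, had log2 ratios of 2.62 and 2.24 over the other cells, and Cdkn1b, which encodes p27, one of 0.91. The antiproliferative gene Btg2 had 58.5 CPM against 198 CPM in the other cells and 115 CPM in the enterocyte-low cells. Mxd4, a relative of Mxd3, had 20.6 CPM against 47.6 CPM and 41.9 CPM. Cdkn2b had 17.3 CPM against 73.0 CPM and 29.8 CPM. Cdkn1a, which encodes p21, had 49.0 CPM, 56.4 CPM and 51.9 CPM and was not counted.

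Many growth and stem cell genes were counted higher than in the other cells, and 0 were counted higher than in the enterocyte-low cells. Over all genes 15.3% and 5.43% were counted higher, so a count of 0 in a short list does not show equal levels. Of 28 ribosome biogenesis and polyamine genes, 21 were higher than in the other cells (median 0.84) and 0 than in the enterocyte-low cells (0.21). Nop56, a nucleolar protein gene, had 107 CPM, 47.6 CPM and 80.2 CPM. Of 82 genes of cytosolic ribosomal proteins 0 were counted in either comparison, and likewise of 26 nuclear genes of oxidative phosphorylation. Of 19 crypt base stem genes, 10 were higher than in the other cells (0.86) and 0 than in the enterocyte-low cells (0.10). Without the secretory-rich cells described below, 1 of 18 was higher than in the enterocyte-low cells (0.18). Lgr5, the receptor that marks crypt base stem cells, had 32.2 CPM in the members, 14.02 CPM in the other cells and 26.01 CPM in the enterocyte-low cells. A member held 0 to 8 UMIs of Lgr5. With each cell thinned to 6777 UMIs, 18.3% of members (exact binomial interval 12.97% to 24.77%), 5.99% of the other cells and 14.6% of the enterocyte-low cells had an Lgr5 UMI. Unthinned, the shares were 38.9%, 11.8% and 28.2%. Ascl2, a stem cell transcription factor, had 8.05 CPM, 3.43 CPM and 6.47 CPM. Olfm4, another common stem marker, had only 2 UMIs in the members and was rare in every group. Unthinned, 1.11% of members, 1.13% of the other cells and 2.54% of the enterocyte-low cells had an Olfm4 UMI. The summed level of the stem list per cell had a median of 734 CPM in the members (0 to 3012) and 546 CPM in the enterocyte-low cells, whose range of 0 to 2637 CPM overlaps that of the members.

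Wnt target genes had counts like those of the stem list, and Notch genes were mixed. The Wnt and stem lists share genes, among them Znrf3 and Cd44, so their likeness is partly that of the same genes. Of 10 Wnt target genes, 6 were higher than in the other cells (median 1.07) and 0 than in the enterocyte-low cells (0.21), where 5.43% of all genes were. Without the secretory-rich cells, 1 of 9 was higher than in the enterocyte-low cells. Axin2, the feedback inhibitor of Wnt signalling and also a gene of the stem list, had 25.8 CPM, 9.83 CPM and 18.7 CPM. Of 5 Notch receptor and target genes, 3 were higher than in the other cells and 2 than in the enterocyte-low cells. Nrarp, a target that limits Notch signalling, had 28.2 CPM, 9.52 CPM and 12.9 CPM, and the receptor Notch2 had 8.05 CPM, 2.44 CPM and 3.38 CPM. Hes1, the main Notch target of the crypt, had 193 CPM, 218 CPM and 228 CPM. The Notch ligand Dll1 had 10.7 CPM, 10.2 CPM and 9.70 CPM, and neither gene was counted.

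**Figure D3:**
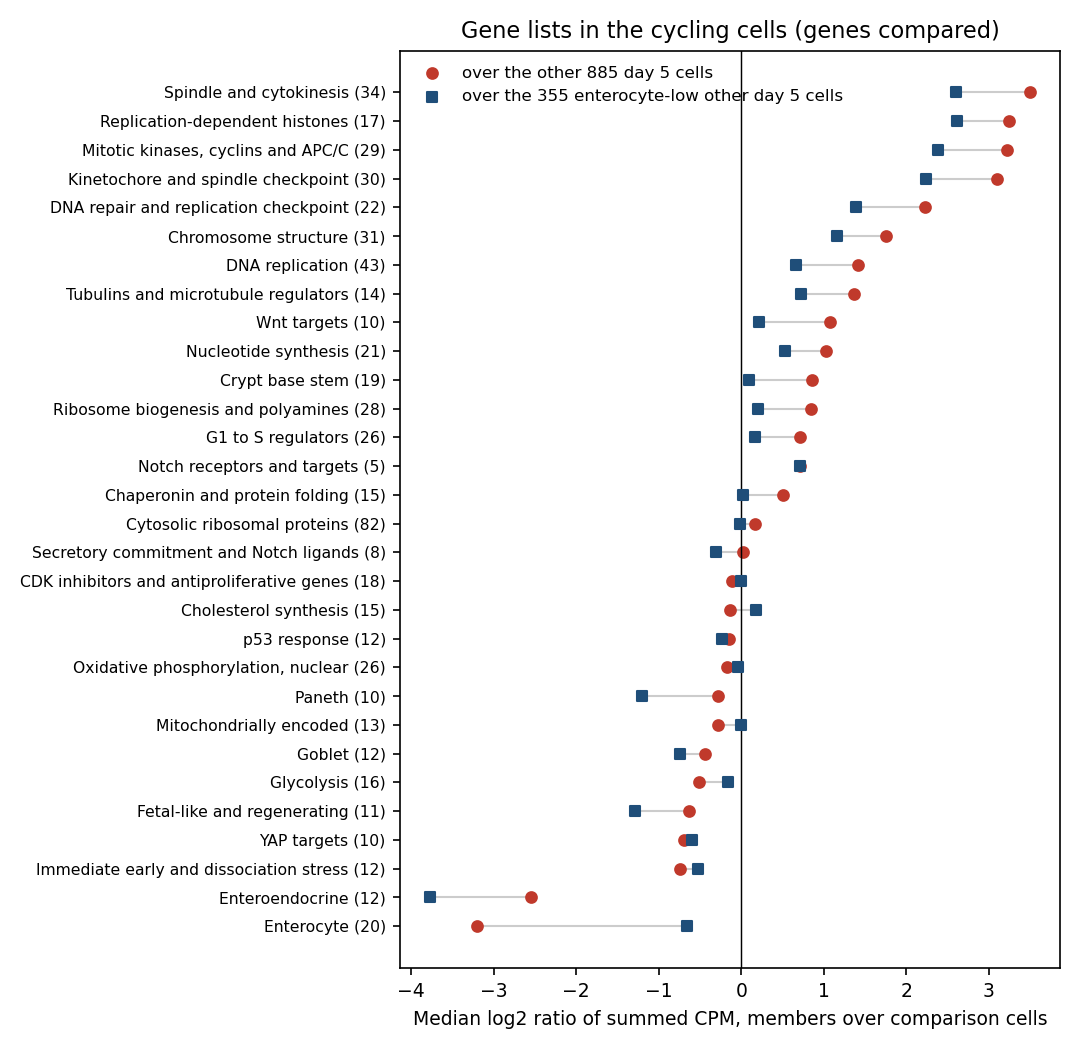
Median log2 ratio of summed CPM (horizontal axis) for each gene list with at least 5 genes compared (number of genes in brackets), in the members over the other 885 day 5 cells (red circles) and over the 355 enterocyte-low cells (blue squares). The mitosis lists keep medians of 2.24 to 2.60 over the enterocyte-low cells, and the stem and ribosome biogenesis lists come close to 0. The enterocyte list, on which the enterocyte-low cells were cut, moves from -3.21 to -0.66.

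Genes of absorptive cells were lower in the members than in the other day 5 cells throughout the list. Of 20 enterocyte genes, 20 were lower than in the other cells (median log2 ratio -3.21) and 11 lower than in the enterocyte-low cells (-0.66), a group itself cut on this list. Per cell, the list took a median 0.190% of UMIs in the members, at most 2.24%, against 2.44% in the other cells. Apoa1, an apolipoprotein, had 134 CPM in the members, 3936 CPM in the other cells and 174 CPM in the enterocyte-low cells. Fabp1, the fatty acid binding protein, had 577 CPM, 5162 CPM and 888 CPM. A median of 3 UMIs per member, and 329 in the highest member, made up the Fabp1 sum. Ace, a brush border peptidase, had 2.84 CPM against 96.4 CPM in the other cells, and Cyp3a11, a drug-metabolising enzyme, 10.9 CPM against 325 CPM. Of 16 glycolysis genes, 7 were lower than in the other cells and 1, Aldoa, was lower than in the enterocyte-low cells, with 153 CPM against 300 CPM.

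Summed levels of several fetal-like and stress genes were lower than in the enterocyte-low cells. The fetal-like and regenerating list, genes of repairing gut epithelium, had 4 of 11 genes lower than in the other cells (median -0.63) and 7 of 10 lower than in the enterocyte-low cells (-1.29). Clu, which encodes clusterin, had 10.7 CPM in the members, 24.1 CPM in the other cells and 39.1 CPM in the enterocyte-low cells. The share of cells with a Clu UMI was 11.1%, 7.80% and 11.3%, or 4.44%, 4.41% and 6.48% with cells thinned to 6777 UMIs, and the exact binomial intervals of these shares overlap. Per cell, the whole list had a median of 190 CPM in the members, 152 CPM in the other cells and 197 CPM in the enterocyte-low cells. The highest cell of each group had 4693 CPM, 12975 CPM and 11940 CPM, so the medians were close and the highest cells lay outside the members. Msln, mesothelin, had 1.18 CPM against 26.6 CPM in the enterocyte-low cells, and Areg, the EGF family ligand amphiregulin, 5.21 CPM against 21.3 CPM. Of 10 YAP target genes, 4 and 2 were lower in the 2 comparisons, and Yap1 itself had 18.2 CPM, 18.7 CPM and 17.2 CPM. Edn1, endothelin 1, had 36.5 CPM against 111 CPM in the enterocyte-low cells, and Depp1 14.4 CPM against 61.9 CPM. Reg1, a secreted lectin gene, had 263 CPM, 7192 CPM and 1139 CPM. Of 12 immediate early and dissociation stress genes 6 were lower than in the other cells, and of 11 compared with the enterocyte-low cells 4 were. Jun had 58.2 CPM, 155 CPM and 104 CPM, and Dusp1 had 4.97 CPM, 37.3 CPM and 12.6 CPM.

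Enteroendocrine hormones were lower in the members, but their UMIs lay in few other cells. Of 12 such genes, 8 were lower than in the other cells, with a median log2 ratio of -2.54, or -1.92 with genes at 0 UMIs set to their bound. Without the cells that held over 1% of secretory transcripts, 2 of 9 were lower and the median was -0.009. Gcg, proglucagon, had 6 UMIs in the members, and 98.8% of the UMIs in the other cells came from 1 cell. Cck, cholecystokinin, had 5.92 CPM in the members against 369 CPM in the other cells, where 1 cell held 41.9%. Cpe, a prohormone-processing peptidase, had 0 UMIs in the members and 61 in the other cells, at least 6.54-fold lower with a floor of 3 UMIs over the group. Markers of cells outside the epithelium were at or near 0: 1 gene of the immune list, Ccl5, and 1 of the stromal and endothelial list, Pecam1, reached 10 UMIs over both groups, with 3 and 2 UMIs in the members.

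Secretory transcripts within the members were held mostly by 11 cells. Of 10 Paneth genes, 3 were higher and 2 lower in the members than in the other cells (median log2 ratio -0.28), and 7 were lower than in the enterocyte-low cells (-1.20). Of 12 goblet genes, 3 and 5 were lower in these comparisons, with medians of -0.44 and -0.74. Without the cells that held over 1% of secretory transcripts, 1 of 9 Paneth genes was higher and 0 lower than in the other cells (median 0.007), and 0 of 9 were lower than in the enterocyte-low cells (-0.40). Of 10 goblet genes 3 were then lower and 1 higher than in the other cells, and 2 of 9 lower than in the enterocyte-low cells. Lists of Paneth, goblet and enteroendocrine genes together took over 1% of UMIs in 11 of 180 members (6.11%, exact binomial interval 3.09% to 10.7%) and in 36 of the other 885 cells (4.07%, 2.87% to 5.59%), a cut at 1% set after the values were seen. The highest member stood at 35.0%, the lowest of the 11 at 1.503% and the next member at 0.639%. These 11 members carried 95.2% of the members' UMIs of Lyz1, the Paneth cell lysozyme, 94.4% of Defa24, a Paneth defensin, 96.1% of Muc2, the goblet mucin, and 100% of Atoh1, the secretory master regulator (17 of 17). For Tff3, a goblet gene, the share was 87.2%. Lyz1, Defa24, Muc2 and Tff3 belong to the lists of the cut, so their levels in these cells follow from it. Atoh1 is not in those lists. Defensin genes have close copies, so the copy counted is uncertain. Lyz1 had 1115 CPM in these 11 members, 3.79 CPM in the remaining 169, 613 CPM in the 36 other cells and 2.48 CPM in the remaining 849. Atoh1 had 63.6 CPM, 0, 47.2 CPM and 0.639 CPM. Of the genes of the rule, which placed these cells among the members, Top2a had 378 CPM in the 11 and 314 CPM in the remaining 169, Birc5 180 CPM and 313 CPM, and Mki67 127 CPM and 168 CPM. Nusap1 had 138 CPM and 181 CPM, and Cdk1 135 CPM and 176 CPM. By phase, 7 of the 11 were in the S-leaning group described next, 3 in the middle and 1 in the G2M-leaning group. None of the 11 was among the 4 members called doublets (0 of 11, which allows up to 28.5%), and a part of doublets in them was not tested further.

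**Figure D4:**
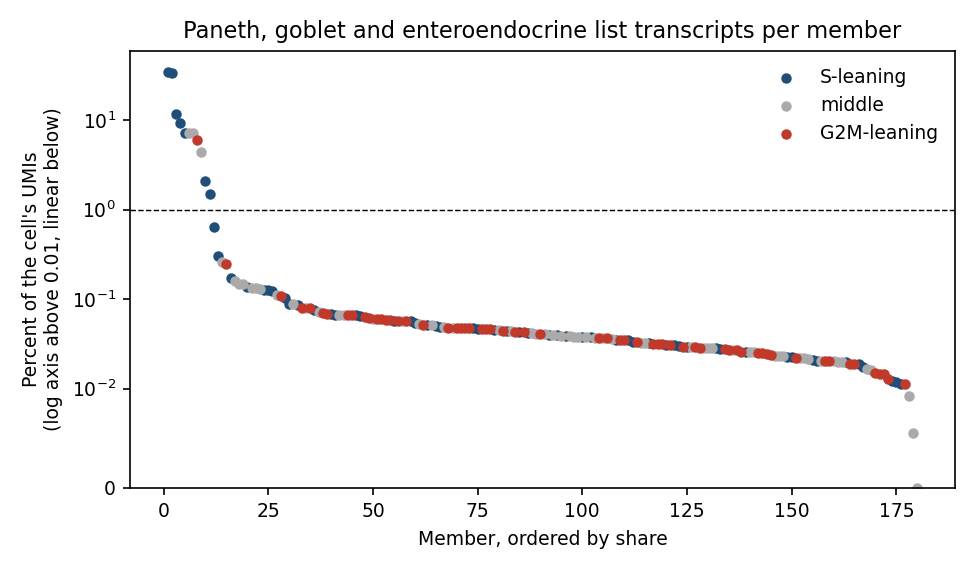
Percent of each member's UMIs from the Paneth, goblet and enteroendocrine lists (vertical axis, logarithmic above 0.01 and linear below), members ordered from highest to lowest and coloured by their place between S and G2M; the dashed line marks 1%. The 11 members above the line run from 35.0% down to 1.503%, and the other 169 lie at 0.639% or less.

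Within the members, cells ran from replication-rich to mitosis-rich. For each member the UMIs of the DNA replication list were taken as a percent of those of that list and the 3 mitosis lists together. The 60 highest members, called S-leaning, ran from 24.9% to 75.7% with a median of 30.4%, and the 60 lowest, called G2M-leaning, from 1.43% to 12.9% with a median of 8.997%. Median totals were close, at 21255 and 21050 UMIs, but the S-leaning members reached higher, with an upper quartile of 30849 UMIs against 23616 and a sum of 1462008 UMIs against 1315457. The levels of both sets over the 180 members had a Spearman rho of -0.39 and a Pearson r of -0.43, a description across cells of 1 library whose CPM share each cell's total.

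**Figure D5:**
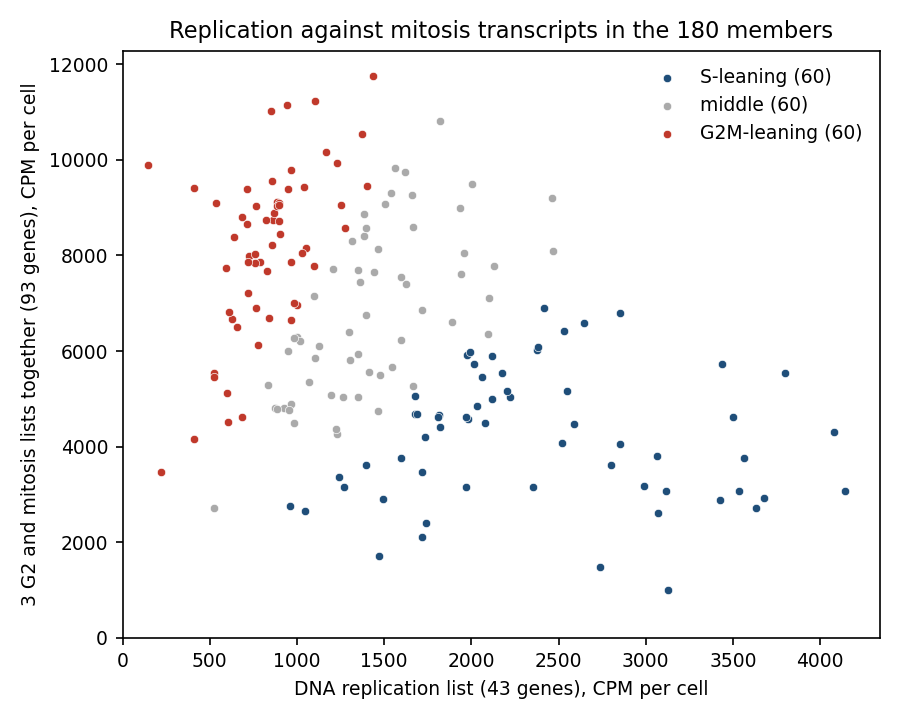
Summed CPM of the 43 genes of the DNA replication list (horizontal axis) against the 93 genes of the 3 mitosis lists (vertical axis) in each of the 180 members, coloured by the split made on these values. Medians of the replication list are 2189 CPM in the S-leaning and 846 CPM in the G2M-leaning members, with a continuous run of cells between them.

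Outside the 4 lists of the split, 113 of 9072 genes (1.25%) were higher in the S-leaning members and 167 (1.84%) were higher in the G2M-leaning members. Without the day 5 cells that held over 1% of secretory transcripts, the counts were 84 and 131. Of 23 G1 to S regulators compared, 5 were higher at the S end and 1, E2f5, at the G2M end, with a median log2 ratio of 0.24. The 5 were Ccne2, Ccne1, E2f1, E2f8 and Ccnd1. Ccne2, cyclin E2, had 29 UMIs in the S-leaning and 0 in the G2M-leaning members, at least 8.70-fold higher with a floor of 3 UMIs over the group. Ccne1 had 19 and 0 UMIs, at least 5.70-fold higher. E2f1 had 27 UMIs and 1 UMI, a log2 ratio of 4.04 with an interval of 2.002 to 9.958. E2f8 had 47.9 CPM and 13.7 CPM. The chromatin factors Atad2 and Hells were also higher there. Atad2 had 60.9 CPM against 15.2 CPM, and Hells 130 CPM against 36.5 CPM. Syce2, known as a meiotic synaptonemal complex gene, had 65.0 CPM against 20.5 CPM. Of 21 nucleotide synthesis genes 6 were higher at the S end and 0 lower, among them Paics with 96.4 CPM against 40.3 CPM. Rrm2, a gene of the rule, had 118 CPM against 33.4 CPM. Of 15 histone genes compared, 0 were counted in either direction.

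Genes higher at the G2M end had varied roles. Kpna2, an importin, had 92.7 CPM in the G2M-leaning and 30.8 CPM in the S-leaning members. Arl6ip1, a protein of the endoplasmic reticulum membrane, had 617 CPM against 168 CPM, and Reep4, which clears that membrane from mitotic chromosomes, 93.5 CPM against 30.8 CPM. Psrc1, a spindle microtubule protein, had 55.5 CPM against 13.7 CPM. Cdkn3 had 83.6 CPM against 18.5 CPM. Lmna, lamin A and C, had 89.7 CPM against 29.4 CPM, although it was not counted between members and other cells. Of 10 tubulin and microtubule genes compared, 2 were higher at the G2M end and 0 at the S end. These were Tuba1c and Tubb4b, with 234 CPM against 85.5 CPM and 727 CPM against 294 CPM. H2afx, the histone variant phosphorylated at DNA breaks, had 332 CPM against 157 CPM. Genes of the rule lay on this side too, Nusap1 with 239 CPM against 114 CPM and Cdk1 with 217 CPM against 124 CPM.

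Stem and secretory differences between the ends changed when the secretory-rich cells were left out. The remaining 169 members were then ranked again and 60 taken at each end, so other members entered the ends as well. With all members, 2 of 18 stem genes were higher at the S end, Lgr5 with 41.0 CPM against 21.3 CPM (log2 ratio 0.93) and Sox9 with 81.4 CPM against 51.7 CPM (0.65). Without secretory-rich cells their log2 ratios were 0.66 and 0.48, and 0 of 18 were counted. Thinned to 6777 UMIs, 18.3% of S-leaning and 21.7% of G2M-leaning members had an Lgr5 UMI, an order opposite to that of the CPM. Of 9 Paneth genes, 8 were higher at the S end, with a median of 5.54, or 4.69 with genes at 0 UMIs set to their bound. Without those cells 0 of 5 were higher and the median was 0.43. Lyz1 had 205 CPM against 1.52 CPM, and 60.4% of its UMIs in the members came from 1 cell. Tff3, a goblet trefoil peptide, had 2345 CPM against 380 CPM with all members, and kept a log2 ratio of 1.06 without secretory-rich cells, against 2.62 with them. Zg16, another goblet gene, was higher at the G2M end with 331 CPM against 22.6 CPM, 67.4% of it in 1 member, and had 14 and 13 UMIs without those cells. Reg3b, a secreted lectin, had a log2 ratio of -1.85 between the ends and -0.52 without those cells.

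The same score was then taken in the day 3 library, which did not choose the members. Of 798 day 3 cells, 410 (51.4%, exact binomial interval 47.8% to 54.9%) scored at or above the lowest day 5 member. With all cells thinned to 6777 UMIs and the score taken again, 428 day 3 cells (53.6%, 50.1% to 57.1%) lay at or above the level that holds 180 day 5 cells (16.9%). These intervals cover the counting of cells within 1 library only, and not the spread between organoid preparations. The same share of cells as on day 5, 135 with scores from 2.05 to 2.99, was compared with the other 663 day 3 cells, whose median score was 1.26. Of 12135 genes, 220 (1.81%) were higher in the 135 cells and 398 (3.28%) lower. Of 11261 genes compared on both days, 1760 were higher on day 5 and 218 on day 3. Higher on both were 187, which is 10.6% of the 1760 and 85.8% of the 218. Ratios on day 3 are set against cells that mostly hold the same transcripts, and their size was not compared with day 5 by any test.

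Mitosis genes were higher in the 135 day 3 cells, which were themselves chosen by the 8 genes of the rule. Counted higher were 32 of 34 spindle genes (median log2 ratio 1.07), 21 of 30 kinetochore genes (0.89) and 19 of 29 kinase, cyclin and APC/C genes (0.84). Ube2c had a log2 ratio of 1.31, Aspm of 1.14 and Mxd3 of 2.16. Of 43 replication genes 1 was higher, Pola1, a DNA polymerase subunit, at 0.64, and 5 were lower, with a median of 0.05. The 5 were Cdc6 at -1.23, Cdt1 at -0.84, Mcm4 at -0.69, Dtl at -0.67 and Uhrf1 at -0.62. Of 26 G1 to S regulators, 0 were higher and 4 lower: Ccne2 at -1.82, E2f1 at -1.18, Ccne1 at -1.09 and E2f7 at -0.88. Stem genes had a median of 0.09, with 0 of 18 higher and Prom1 lower at -0.59. The fetal-like and regenerating list was lower in the highest-scoring day 3 cells, with 8 of 12 genes and a median of -0.97, among them Clu at -1.17 and Msln at -0.99. Of 19 histone genes compared on day 3, 10 were higher and 1 lower, with a median of 1.02.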

How the data were processed

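The authors deposited 2 tables over 15745 genes and 1863 cells: raw UMI counts, and log2 values that equal the log2 of the count scaled to the mean total plus 1. Reads were processed with Cell Ranger 1.3.0 on mm10, per the submitters' processing notes. The filter on cells is not given in the sources used here. Symbols matched 15681 genes, and the rest held 0.0194% of UMIs. Members were ranked on the deposited log2 values, and every comparison used the deposited counts, summed over cells and scaled to 1000000. Ratios had 0.5 UMI added to each sum, and intervals are exact Poisson, or exact for a ratio of 2 counts. Exact binomial intervals of shares of cells take the cells of 1 library as independent and do not cover the spread between libraries. Doublets were called with Scrublet in scanpy 1.11.5, and TMM factors came from edgeR 4.0.16. Library totals were 28764033 UMIs on day 3 and 17349076 on day 5. A count of 0 allows 3. The members, gene lists and comparisons were chosen with earlier results of these data known. Genes named are those of the rule, the 15 highest and 10 lowest over the other cells, the 10 highest and 10 lowest over the enterocyte-low cells and between the S and G2M ends (at least 50 CPM in the higher group and 10 UMIs in the lower), the 2 highest and 2 lowest of each list, and genes of known role fixed beside them. Other list members named in the text were picked after their values were seen. Alternatives were TMM scaling, per-cell means, thinned counts, 120 or 240 members, other scores, no doublets, other count minimums, cells with at least 10000 UMIs, 45 or 90 cells at each end, the day 5 edge of the score on day 3, and, added after seeing the data, no secretory-rich cells. Values of some listed genes are not reported here. The calls were checked on simulated Poisson sums without spread between cells, so that check does not cover genes whose UMIs lie in few cells.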

Additional observations from a re-analysis of the deposited data

Results flagged for a closer look

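The rule's score was taken on both days, and 6 named or listed genes were counted higher in the highest-scoring cells on day 5 and lower on day 3, each against the other cells of its own library. Over all genes compared on both days, 17 did so, 0.966% of the 1760 higher on day 5. That is a smaller share than over all 12135 genes compared on day 3, of which 3.28% were lower. The difference between days was not tested, and there is 1 library a day. Ccne2 had a log2 ratio of 1.23 on day 5 and -1.82 on day 3. Cdt1 had 0.70 and -0.84. Dtl, which targets Cdt1 for destruction, had 1.47 and -0.67. Uhrf1, which keeps DNA methylation at the replication fork, had 1.39 and -0.62. E2f7 had 2.71 and -0.88. Nupr1, a stress response gene placed in the Paneth list, had 0.72 and -1.16. The comparison cells differ between days: 586 of 885 other day 5 cells scored 0, against 19 of 663 other day 3 cells. Over the enterocyte-low day 5 cells, Ccne2 had 0.35, Cdt1 -0.04, Dtl 0.56, Uhrf1 0.49 and Nupr1 -0.04, none of them counted, and E2f7 had 1.88.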

How the results depend on the processing

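No paired analysis was possible because each day has 1 library. Of 110 recomputed values of the main counts and medians, 100 stayed within 1.5 times the main count or moved a median by no more than the counting interval of its middle gene, and 10 moved further. The DNA replication list's median over the other cells was 1.41, and 1.75 with means of per-cell CPM, 1.79 with thinned counts and 2.06 with 240 members. The stem list's median was 0.86, and 1.12, 1.14 and 1.11 under the same settings. Thinned counts left 227 genes lower than in the enterocyte-low cells in place of 411, and 49 and 66 genes higher at the S and G2M ends in place of 113 and 167; with 90 cells at each end, 103 genes were higher at the G2M end. Thinning leaves fewer UMIs to count. Ratios over the other cells that changed sign were those of Sst (1.13 with 240 members and 1.65 with the thinned score), Chgb (0.12 in cells with at least 10000 UMIs and 0.25 without secretory-rich cells), Gcg (0.41 under both) and Mmp7 (-0.018 in cells with at least 10000 UMIs). The immune list, 1 gene of few UMIs, had 1.18, 0.17 and 4.49 over the enterocyte-low cells with per-cell means, 120 and 240 members. The cause was not tested. Members by the thinned score shared 159 of 180 cells with the members, and those by CPM of the rule's genes 174. Depth limits genes of few UMIs, for which a count of neither higher nor lower does not show equal levels.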
